A study of Mus musculus with 4 samples.

Results

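The 10 genes of the MHC class II presentation pathway described here are H2-Aa, H2-Ab1, H2-Eb1, Cd74, H2-DMa, H2-DMb1, H2-DMb2, H2-Oa, H2-Ob and Ciita. They were chosen by name among 16500 gene symbols, and all 10 were listed in each of the 4 libraries. The libraries came from uninfected C57BL/6 mice, with 1 library each from stomach, small intestine, cecum and colon. Live cells carrying the leukocyte surface protein CD45 (CD45.2) were sorted from preparations of intraepithelial lymphocytes, the leukocytes that lie within the epithelium. They were sequenced with 10x Genomics 3′ chemistry, which counts each captured transcript once by its molecular identifier (UMI). By the GENCODE annotation of GRCm38 the chains, DM and DO genes lie on chromosome 17 between 34092340 (start of H2-Oa) and 34316674 (end of H2-Eb1), Ciita at chr16:10480059-10528418 and Cd74 at chr18:60803848-60812652. The labels give no age or sex and no number of mice, and the extraction text of all 4 records mentions colons only, so the tissue labels were followed. Because each tissue had 1 library, a tissue, its animals and its library cannot be told apart, and no tissue difference was tested.

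MHC class II molecules are paired alpha and beta chains that carry peptides from the endosomes to the surface of antigen-presenting cells, where CD4 T cells read them. The invariant chain Cd74 blocks the peptide groove of new molecules until it is cut down in the endosome, H2-DM then exchanges its last fragment for other peptides, and H2-DO binds H2-DM and holds it back. Ciita is the transactivator that switches these genes on, acting through a set of factors bound to short conserved elements, among them the X and Y boxes, in front of the class II genes.

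The promoters of the class II genes are shown for the letters of the X and Y boxes named above, which the choice of the genes by name did not use. RefSeq promoter windows (250 bases before to 50 after the start, build GRCm38.p6) were matched by symbol for 7 of the 10 genes in 8 entries; Cd74, H2-Ab1 and Ciita had no entry. The letters TGATTGG, a Y box core, were searched on both strands and were found in 6 of the 8 entries, each time on the gene's own strand, from 45 (H2-Oa) to 92 (H2-DMb2) bases before the start. The letters AACNNATGATGC are ATGATGC, picked after reading these promoters as part of an X box, and the 5 bases before it, with N where the members differ. They were found in 4 entries, those of H2-Eb1, H2-DMb1, H2-DMb2 and H2-Ob. They ended 14 (H2-Ob) to 17 (H2-DMb1 and H2-DMb2) bases before TGATTGG; the letters do not overlap. Each stretch below is 55 bases, 5′ to 3′ on the gene's strand, with the matched letters in capitals.
H2-Aa (chr17:34287864-34287918, - strand): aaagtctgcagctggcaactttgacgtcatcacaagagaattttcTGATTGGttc
H2-Eb1 (chr17:34305761-34305815, + strand): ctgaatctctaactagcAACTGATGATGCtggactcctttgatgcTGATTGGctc
H2-DMb1 (chr17:34153083-34153137, + strand): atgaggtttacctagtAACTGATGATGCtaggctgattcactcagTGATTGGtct
H2-DMb2 (chr17:34145112-34145166, + strand): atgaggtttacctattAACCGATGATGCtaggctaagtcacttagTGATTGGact
H2-Oa (chr17:34092289-34092343, + strand): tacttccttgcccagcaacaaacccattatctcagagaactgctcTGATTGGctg
H2-Ob (chr17:34238801-34238855, + strand): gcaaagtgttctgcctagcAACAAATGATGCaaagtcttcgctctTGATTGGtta
Of 32851 promoter windows of the same length, 7.82% held TGATTGG and 13 (0.0396%) held AACNNATGATGC. Both were held by 5 windows, those of the 4 members above and that of Gm38969. Neither was found in the 2 windows of H2-DMa, which says only that these letters are not in these windows. A match is a description of the letters and not a measured binding site. The X box letters were built from the 4 members that hold them, so those matches were fixed in advance. That 4 of the 5 windows with both are members is therefore no support for a shared element.

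Cells were assigned to gates by UMIs of fixed marker genes, none of them a class II gene, so that the levels below were not used to name the cells. Of 14378 barcodes, 14373 with at least 200 genes were kept, and 23 barcode sequences occurred in 2 or more libraries. The libraries held 8568438 (cecum) to 12988676 (colon) UMIs with medians of 1707 (cecum) to 2986 (colon) UMIs per cell. No doublet caller was run. In total, 304 cells (2.12%) met the markers of more than 1 gate with neither clearly ahead and were kept apart as mixed, and 460 cells (3.20%) met none. The labelled lymphocytes made up most of 3 libraries, with 77.5% to 89.8% of cells in the T gate (Cd3 and T cell receptor genes) of small intestine, cecum and colon. The T gate held 9.29% in stomach, where 59.5% of cells were in the mast gate (Cpa3, Ms4a2, Kit and others). The gates that matter most here were small. The C1q macrophage gate (C1qa or C1qc with Csf1r, Adgre1 and others) held 223, 25, 7 and 23 cells in stomach, small intestine, cecum and colon. The Siglech dendritic gate (Siglech, Klk1, Cox6a2 and others, a plasmacytoid dendritic cell pattern) held 4, 190, 25 and 17 in the same tissues. The germinal centre B gate (B cells with Mef2b, S1pr2 and others) held 17 in small intestine and 45 in cecum, and the B gate (Cd79a, Ms4a1 and others) 81, 25, 529 and 182. Sums of fewer than 10 cells entered no test. In bulk sums of a gate, fewer expressing cells and less RNA per cell cannot be told apart.

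The gate that held most Cd74 UMIs differed from tissue to tissue. In stomach, the macrophage gate held 59.8% of all Cd74 UMIs in 6.98% of the cells. In cecum and colon, the B gate held 59.7% and 38.7% of them in 12.5% and 4.84% of the cells, and in colon the 23 macrophage gate cells held another 26.3%. In small intestine no gate held a majority: the Siglech dendritic gate had 23.9%, the plasma gate (Sdc1, Mzb1, Tnfrsf17 and others) 15.1% and the T gate 13.5%. Cells in no gate held 9.17% (cecum) to 22.9% (stomach) of Cd74 UMIs. Other members were spread differently. In small intestine the plasma gate held 0.577% of the H2-Aa, 3.23% of the H2-Ab1 and 2.13% of the H2-Eb1 UMIs. The T gate of that library, with 77.5% of its cells, held 23.8% of the H2-Eb1 UMIs against 17.6% in the dendritic gate, and 33.7% of the H2-DMa UMIs against 31.6%. In colon the T gate held 35.5% of the H2-DMa UMIs, against 23.5% in the B gate.

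**Figure D1:**
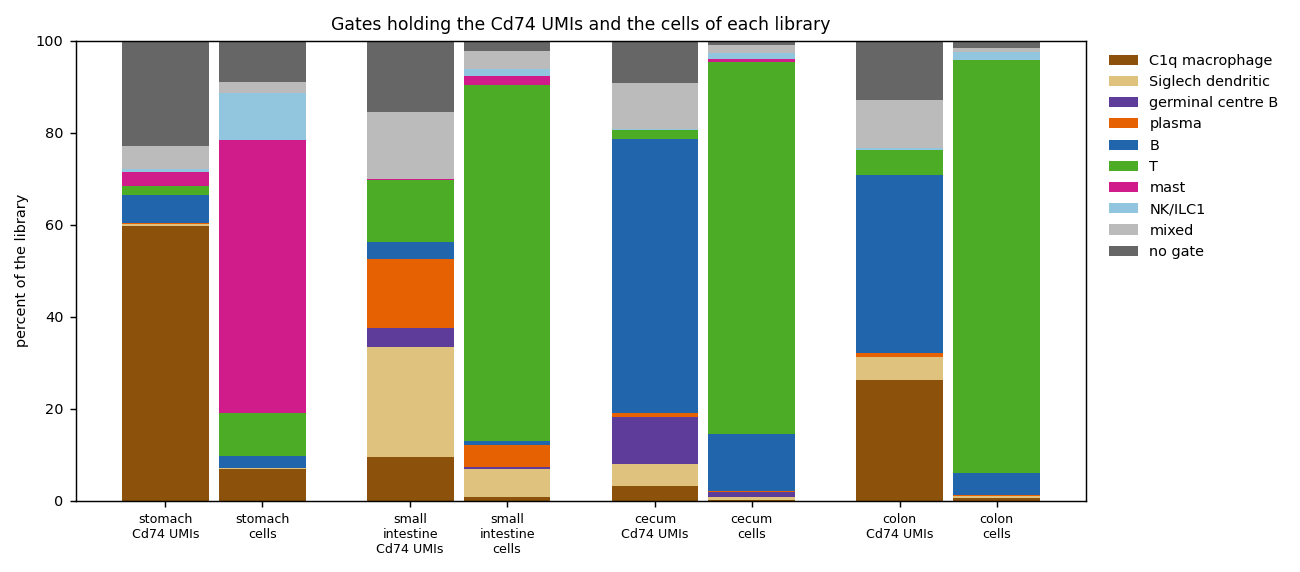
Percent of each library's Cd74 UMIs (left bar of each pair) and of its cells (right bar) by cell gate. The T gate fills most of the cell bars of small intestine, cecum and colon, while the Cd74 bars are filled mainly by the macrophage gate in stomach (59.8%) and the B gate in cecum (59.7%).

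The class II chains were high in the macrophage, dendritic and B cell gates wherever a gate held at least 10 cells. Levels are given as CPM, the UMIs of a gene scaled to a common total per gate and library. They are compared within a gene only, since they are not scaled to transcript length. H2-Aa, the alpha chain of the I-A molecule, had 16527, 10307 and 15015 CPM in the macrophage gate of stomach, small intestine and colon. It had 2978, 6390.2 and 4726 CPM in the dendritic gate of small intestine, cecum and colon, and 2976 and 3253 CPM in the germinal centre B gate of small intestine and cecum. The B gate had 7559.6, 4143, 9651 and 8532 CPM in stomach, small intestine, cecum and colon. H2-Ab1, the beta chain of I-A, had 16338, 12475 and 15656 CPM in the macrophage gate of stomach, small intestine and colon. It had 2173, 4635 and 3385 CPM in the dendritic gate of small intestine, cecum and colon, and 3666 and 4017 CPM in the germinal centre B gate of small intestine and cecum. The B gate had 5980.3, 3514, 7619 and 7439 CPM in stomach, small intestine, cecum and colon. In each of these libraries the macrophage gate lay above the B gate and the dendritic gate below it for both chains.

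H2-Eb1 encodes the beta chain of I-E, a molecule that C57BL/6 mice do not form because their alpha chain gene is defective. That gene is annotated as a polymorphic pseudogene, H2-Ea-ps, and had 9.49 to 13.1 CPM in the B gate. H2-Eb1 itself had 16265, 9559 and 15348 CPM in the macrophage gate of stomach, small intestine and colon. It had 1360.5, 3220.2 and 2526 CPM in the dendritic gate of small intestine, cecum and colon, and 3091 and 3718 CPM in the germinal centre B gate of small intestine and cecum. The B gate had 5862, 3212, 7775 and 7289.9 CPM in stomach, small intestine, cecum and colon. The macrophage gate was again the highest and the dendritic gate the lowest in each library where it had at least 10 cells. Cd74 had 40788, 28443 and 39501.5 CPM in the macrophage gate of stomach, small intestine and colon. It had 8317, 15469 and 12775 CPM in the dendritic gate of small intestine, cecum and colon, and 12767 and 12964 CPM in the germinal centre B gate of small intestine and cecum. The B gate had 22147.5, 13059.7, 26898 and 25079.9 CPM in stomach, small intestine, cecum and colon. Small intestine was the lowest library for Cd74 in the macrophage, dendritic and B gates alike.

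**Figure D2:**
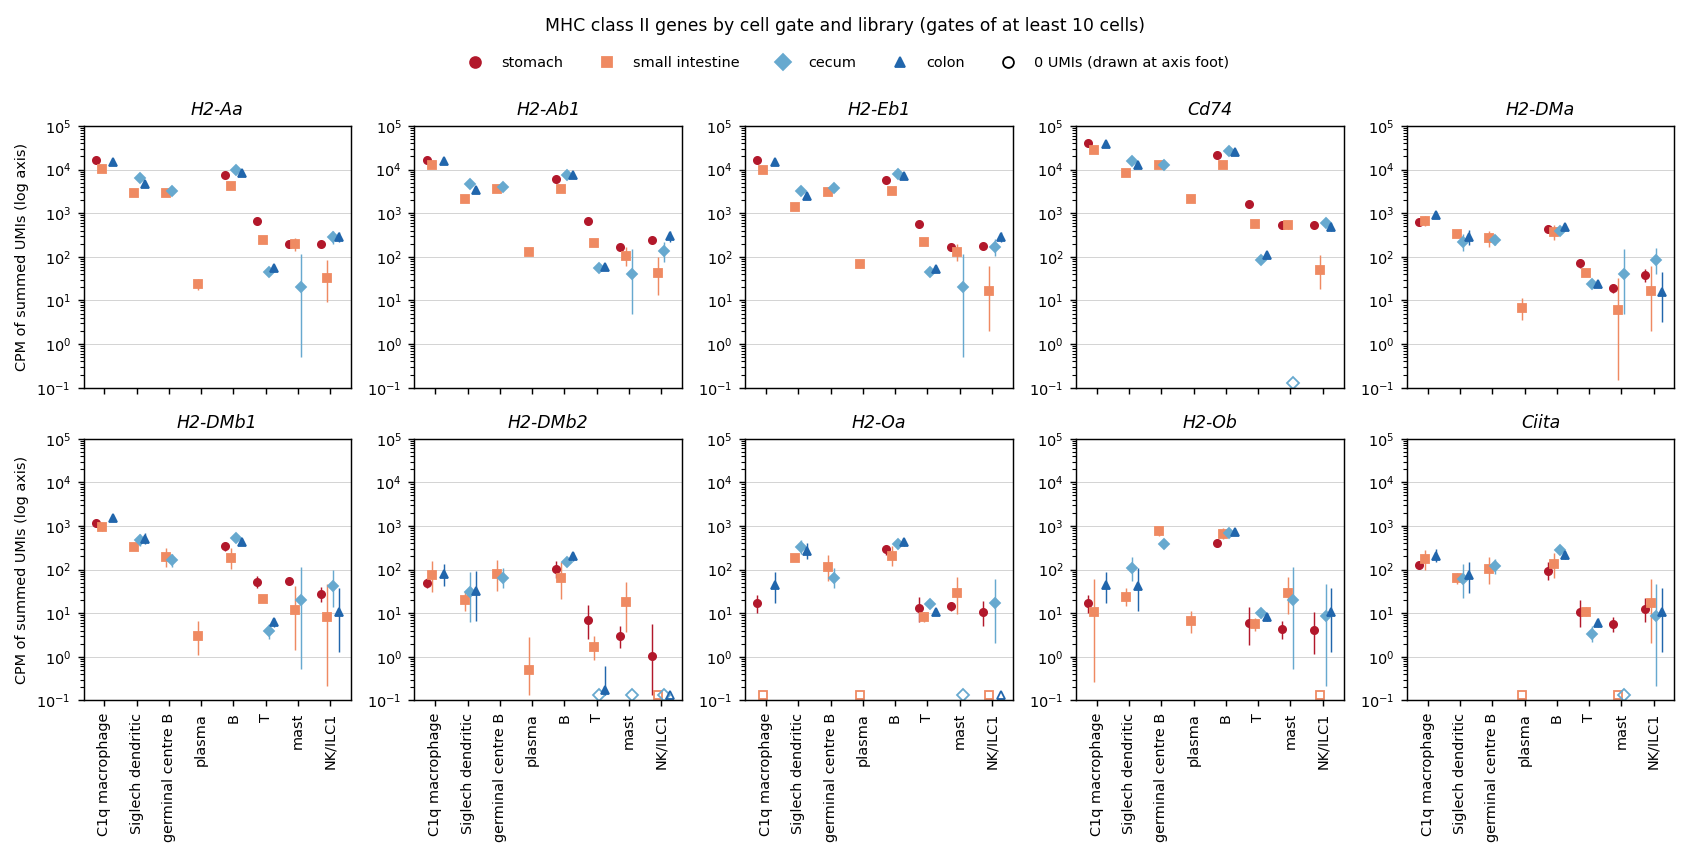
Level of each class II gene (CPM of summed UMIs, log axis) by cell gate and library, for gates of at least 10 cells, with exact Poisson 95% intervals. The chains and Cd74 are high in the macrophage, dendritic, germinal centre B and B gates and lower in the T, mast and NK/ILC1 gates, whereas H2-Oa and H2-Ob stay low in the macrophage gate.

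The C1q macrophage gate was first set against the B gate of the same libraries. H2-Ab1, H2-DMa and H2-DMb1 were higher in macrophages, while H2-Oa and H2-Ob, the chains of the DM inhibitor H2-DO, were far lower; Ciita did not differ beyond its error. H2-DMa, the alpha chain of H2-DM, had 633, 662 and 900.3 CPM in the macrophage gate of stomach, small intestine and colon against 446, 367 and 492 CPM in the B gate of the same tissues. H2-DMb1, a beta chain of H2-DM, had 1196, 951 and 1486 CPM in the macrophage gate of stomach, small intestine and colon against 346, 184 and 420.2 CPM in the B gate of the same tissues. All macrophage values of both genes lay above all B gate values. H2-DMb2, the second DM beta gene, went the other way in stomach and colon, with 50.4, 74.8 and 80.2 CPM in the macrophage gate of stomach, small intestine and colon against 104, 65.6 and 199 CPM in the B gate of the same tissues; its reads are uncertain, since the longest transcripts of the DM beta genes are 96.0% identical over 1045 aligned bases and the counting could split them.

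H2-Oa, the alpha chain of H2-DO, had 17.1, 0 and 43.2 CPM in the macrophage gate of stomach, small intestine and colon against 289, 209.8 and 418 CPM in the B gate of the same tissues. H2-Ob, its beta chain, had 17.1, 10.7 and 43.2 CPM in the macrophage gate of stomach, small intestine and colon against 403, 669 and 737 CPM in the B gate of the same tissues. The groups did not overlap for either gene, and the macrophage sums rested on 0 to 19 UMIs each. Cells of the macrophage gate also carried B marker UMIs at 24.7 (colon) to 85.4 CPM (small intestine), against 5730 (small intestine) to 9694 CPM (colon) in the B gate. The part of such UMIs in the remaining H2-DO level was not tested.

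All 8360 genes with enough counts were tested on summed UMIs with edgeR's quasi-likelihood test with Benjamini-Hochberg adjustment. In it, 3 of the 10 class II genes were higher in the macrophage gate, against a background of 17.3% of all genes, and 2 were lower, against 14.4%. These counts are not far from the background of a comparison between such different cells. The median log2 fold change was 0.86 over the class II genes and -0.07 over all genes. In that edgeR test the log2 fold change was 1.77 ± 0.47 (SE) for H2-DMb1 (adjusted p = 0.00522), 0.91 ± 0.31 (SE) for H2-DMa (adjusted p = 0.0254) and 1.37 ± 0.52 (SE) for H2-Ab1 (adjusted p = 0.0470). It was -3.68 ± 0.41 (SE) for H2-Oa (edgeR adjusted p = 1.46e-07) and -4.23 ± 0.40 (SE) for H2-Ob (edgeR adjusted p = 1.42e-08). H2-Eb1, H2-Aa and Cd74 had log2 values of 1.29 ± 0.57 (SE), 1.03 ± 0.58 (SE) and 0.82 ± 0.69 (SE), and none passed the threshold of 0.05 (edgeR adjusted p = 0.0901, 0.193 and 0.408). Ciita had 124, 171 and 209.7 CPM in the macrophage gate of stomach, small intestine and colon against 94.9, 131 and 215 CPM in the B gate of the same tissues, a log2 fold change of 0.01 ± 0.36 (SE).

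The higher calls rested on few libraries, while H2-Oa and H2-Ob were called lower without each library in turn. With the colon library left out 2 class II genes were called, with the small intestine library left out 3 (1 higher, 2 lower). With sums of at least 30 cells 2 were called; that leaves only the stomach macrophages, so the spread comes from the other gates and the lone sum is assumed to vary like them. H2-DMb1 was the 1 higher call without small intestine, and the H2-Ab1 call was lost without colon, small intestine or stomach (edgeR adjusted p = 0.0895, 0.253 and 0.0612). Without cecum H2-Eb1 was called as well. With DESeq2's size factors in place of edgeR's scaling the median over all genes moved by 0.14 on the log2 scale in this comparison, and the calls were again 3 higher and 2 lower. The libraries are different tissues and not repeats of 1 tissue. The fit pools the spread of all gates, the T, NK/ILC1 and mast sums among them, around gate and library terms. Its p-values therefore do not measure the spread of this gate difference alone, which rests on 3 macrophage sums.

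Among the 40 tested of 43 listed other genes of the pathway (lysosomal proteases, trafficking, promoter factors, costimulation and further class II genes), 15 were higher and 10 lower in the macrophage gate by the same edgeR test. The backgrounds over all genes were 17.3% and 14.4%. The 4 named by size of change were Cd63, a tetraspanin of late endosomes, and Batf3, a transcription factor of conventional dendritic cells, both higher, and the B cell factors Pou2af1 and Spib, both lower. Cd63 had a log2 fold change of 5.76 ± 0.68 (SE) (edgeR adjusted p = 5.12e-07) and Batf3 one of 4.77 ± 0.75 (SE) (edgeR adjusted p = 2.46e-05). Pou2af1 and Spib had 0 UMIs in the macrophage sums against 166 and 139 in the B gate of the same 3 libraries. Against 3 counts over the gate, Pou2af1 was at least 114-fold and Spib at least 95.6-fold lower.

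In the Siglech dendritic gate H2-Ob, Ciita and H2-DMb2 were lower than in B cells, whereas the H2-Oa difference did not pass the test. The difference between the H2-DO chains was itself not tested. H2-Oa had 182, 331 and 272 CPM in the dendritic gate of small intestine, cecum and colon against 209.8, 381 and 418 CPM in the B gate of the same tissues. The log2 fold change was -0.45 ± 0.30 (SE) and did not pass (edgeR adjusted p = 0.332). H2-Ob had 23.8, 110.3 and 41.9 CPM in the dendritic gate of small intestine, cecum and colon against 669, 686 and 737 CPM in the B gate of the same tissues, with no overlap. The log2 fold change was -4.13 ± 0.40 (SE) (edgeR adjusted p = 2.36e-08). H2-Oa overlaps the antisense gene BC051537, and since the use of strand in the counting is not given in the sources used here, their reads cannot be told apart.

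Ciita had 62.7, 60.2 and 73.4 CPM in the dendritic gate of small intestine, cecum and colon against 131, 287 and 215 CPM in the B gate of the same tissues. The dendritic values were all lower, with a log2 fold change of -1.80 ± 0.40 (SE) (edgeR adjusted p = 0.00144). H2-DMb2 had 20.1, 30.1 and 31.4 CPM in the dendritic gate of small intestine, cecum and colon against 65.6, 147 and 199 CPM in the B gate of the same tissues. Its log2 fold change was -2.77 ± 0.67 (SE) (edgeR adjusted p = 0.00334). It missed the threshold in DESeq2's test (adjusted p = 0.0695) and without the small intestine library (edgeR adjusted p = 0.0851). H2-DMb1 had 321, 482 and 514 CPM in the dendritic gate of small intestine, cecum and colon against 184, 531 and 420.2 CPM in the B gate of the same tissues, values that overlapped. Of the 10 class II genes 0 were higher in edgeR's test (background 12.1%) and 0 by DESeq2. The 4 with an unadjusted p under 0.05 were the 3 lower calls and H2-Eb1, which also had a lower value. In edgeR's test 3 were lower (background 9.31%), and 5 with marker-carrying T, NK/ILC1 and mast cells left out of the fit. The background belongs to the main fit, and none was counted for the other. The median log2 fold change was -0.71 against -0.05 over all genes.

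Single cells of the dendritic gate differed widely in class II level. In small intestine, where 190 cells were measured, the summed chains H2-Aa, H2-Ab1 and H2-Eb1 had a 10th percentile of 290.2, a median of 5468 and a 90th percentile of 12492 CPM per cell, and 5 cells had 0 UMIs of Cd74. The 25 macrophage gate cells of that library spanned 23909 to 47769.9 CPM between the same percentiles, and its 25 B gate cells 6414 to 21146 CPM. Median depth was 3616.5 UMIs in the dendritic, 3603 in the macrophage and 2098 in the B gate, and counting error adds to each spread. Genes of other myeloid lists were found in the dendritic gate. At least 2 genes of the macrophage list were carried by 28.4%, 20% and 58.8% of its cells in small intestine, cecum and colon, at a summed level of 482 (cecum) to 555 CPM (colon). For the conventional dendritic list the shares were 78.4%, 56% and 88.2%, and for the monocyte list 90.5%, 92% and 94.1%, at summed levels of 913 (cecum) to 1081 CPM (small intestine) and 6875 (colon) to 8366 CPM (cecum). At least 1 monocyte list gene, a looser rule, was also carried by 39.4% (small intestine) to 64.0% (stomach) of T gate cells with under 10 Cd74 UMIs. The lists thus do not mark 1 cell type alone, and the part of these genes in the spread was not tested.

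Of the other pathway genes, 9 of 40 were higher and 10 lower in the dendritic gate (backgrounds 12.1% and 9.31%). The lysosomal proteases Ctsl and Ctsb were higher, by a log2 fold change of 6.61 ± 0.41 (SE) (edgeR adjusted p = 4.70e-11) and 4.54 ± 0.29 (SE) (edgeR adjusted p = 4.70e-11). H2-Eb2, a further class II beta gene next to H2-Eb1, was lower, with a log2 fold change of -4.61 ± 0.61 (SE) (edgeR adjusted p = 2.93e-06). Pou2af1, the B cell coactivator, had 2 UMIs in the dendritic gate against 248 in the B gate of the same libraries, a ratio of 0.00930 (95% counting interval 0.00112 to 0.0340).

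Germinal centre B cells, the dividing B cells of lymphoid follicles, had less H2-Oa than the other B cells, and that was the 1 class II gene to pass the test. H2-Oa had 115 and 65.7 CPM in the germinal centre B gate of small intestine and cecum against 209.8 and 381 CPM in the B gate of the same tissues. The log2 fold change was -2.27 ± 0.44 (SE) (edgeR adjusted p = 4.47e-04). H2-Ob had 758 and 394 CPM in the germinal centre B gate of small intestine and cecum against 669 and 686 CPM in the B gate of the same tissues. The direction differed between the 2 libraries, with a log2 fold change of -0.56 ± 0.35 (SE) that did not pass (edgeR adjusted p = 0.282). In small intestine Cd74 had 12767 CPM in the germinal centre gate against 13059.7 CPM in the B gate, whereas in cecum it had 12964 against 26898 CPM. Ciita had 103 and 119 CPM in the germinal centre B gate of small intestine and cecum against 131 and 287 CPM in the B gate of the same tissues. The values were lower in both libraries but not past the threshold, at a log2 fold change of -1.11 ± 0.43 (SE) (edgeR adjusted p = 0.0672).

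In edgeR's test 0 of the 10 class II genes were higher (background 10.8%) and 0 by DESeq2. An unadjusted p under 0.05 was found for 3, all with lower values, and 1 was lower by edgeR's adjusted p (background 10.5%). The median log2 fold change was -0.998 over the class II genes and -0.16 over all genes. The comparison rests on 17 and 45 germinal centre B cells, and the number of calls moved with the libraries. It was 0 without cecum, 2 without small intestine and 4 without stomach, where H2-DMa, H2-DMb1 and Ciita joined H2-Oa as lower. Without cecum or small intestine the germinal centre gate has 1 sum, which is assumed to vary like those of the other gates. With marker-carrying T, NK/ILC1 and mast cells left out, an alternative added after the data were seen that leaves these 2 gates as they are, 5 were lower. The share of all genes called in that fit was not counted, so the 5 have no background beside them. Plasma list genes were at 1321 (small intestine) and 1795 CPM (cecum) in the germinal centre gate, against 1337 and 656 CPM in the B gate, and their part in these values was not tested. Of the other pathway genes 1 of 40 was higher and 9 were lower. Among those named, the interferon regulatory factor genes Irf4 and Irf1 were lower, with log2 fold changes of -2.78 ± 0.82 (SE) (edgeR adjusted p = 0.0168) and -2.53 ± 0.40 (SE) (edgeR adjusted p = 4.99e-05). The checkpoint ligand genes were near 0, with 2 UMIs of Cd274 against 63 in the B gate, a ratio of 0.0738 (95% counting interval 0.00875 to 0.278). Pdcd1lg2 had 0 UMIs against 40, at least 5.73-fold lower against 3 counts over the gate.

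**Figure D3:**
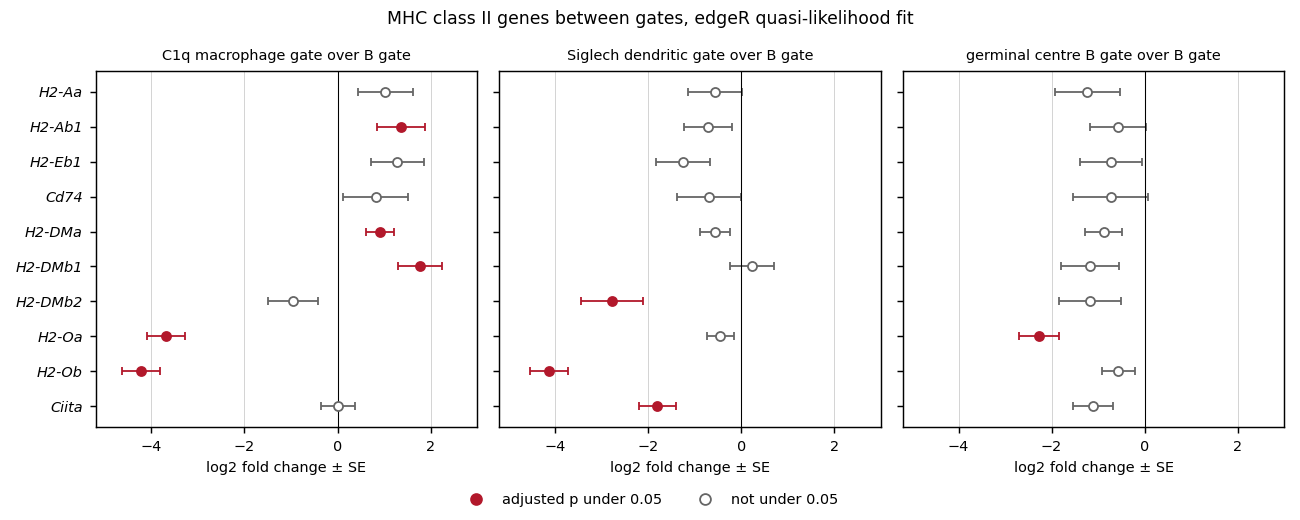
Log2 fold change of each class II gene (points, with SE bars) in the C1q macrophage, Siglech dendritic and germinal centre B gates over the B gate, from edgeR's quasi-likelihood fit over 24 gate sums. H2-Ob is low in the macrophage (-4.23) and dendritic (-4.13) gates, and H2-Oa in the macrophage (-3.68) and germinal centre (-2.27) gates.

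Plasma gate cells of small intestine had little of the chains relative to B cells, and relatively more Cd74. Among 152 cells, Cd74 had 2146 CPM against 13059.7 CPM in the B gate of that library, a ratio of 0.164 (95% interval 0.153 to 0.176). The ratio was 0.00567 (95% interval 0.00407 to 0.00775) for H2-Aa, 0.0361 (95% interval 0.0302 to 0.0430) for H2-Ab1 and 0.0208 (95% interval 0.0167 to 0.0259) for H2-Eb1. The ratio of Cd74 was above that of each chain, with intervals that did not overlap. Ciita and H2-Oa had 0 UMIs in 1956810, which allows up to 1.53 CPM, against 131 and 209.8 CPM in the B gate. No other library held 10 plasma gate cells, so the difference has no replicate check. The intervals cover counting error only, and the totals of both gates include immunoglobulin UMIs, which scale all 10 ratios alike.

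**Figure D4:**
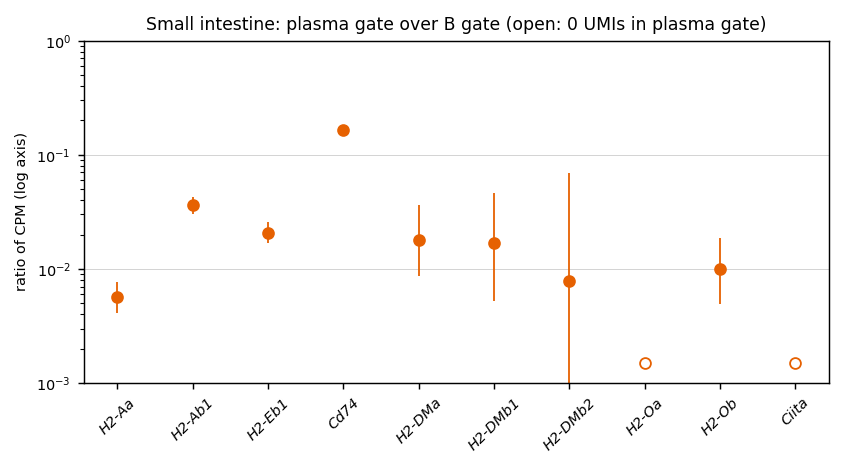
Ratio of CPM in the plasma gate to CPM in the B gate of the small intestine library (log axis) for each class II gene, with 95% counting intervals. Cd74 sits at 0.164 and every other class II gene at or below 0.0361.

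T cells were then compared with B cells, and all 10 class II genes were higher in the B gate. Cd74 had 22147.5, 13059.7, 26898 and 25079.9 CPM in the B gate of stomach, small intestine, cecum and colon against 1641, 568, 85.5 and 112 CPM in the T gate of the same tissues. H2-Ab1 had 5980.3, 3514, 7619 and 7439 CPM in the B gate of stomach, small intestine, cecum and colon against 676, 213, 55.7 and 59.5 CPM in the T gate of the same tissues. The gates did not overlap for either gene, and the T gate was highest in stomach and lowest in cecum and colon. In edgeR's quasi-likelihood test 10 of 10 class II genes were higher in the B gate, against a background of 13.1%. Log2 fold changes lay between 3.69 ± 0.30 (SE) for H2-DMa and 7.49 ± 0.58 (SE) for H2-DMb2 (largest Benjamini-Hochberg adjusted p = 2.48e-06, for Cd74). The median was 5.11 over the class II genes and -0.09 over all genes, and the 10 calls held without each library in turn. Of the other pathway genes 20 of 40 were higher and 3 lower in the B gate (backgrounds 13.1% and 14.2%). The 4 largest were Spib, Cd40, the ligase gene March1, whose product turns over surface class II, and Pou2af1. Their log2 fold changes were 9.86 ± 0.29 (SE), 7.54 ± 0.54 (SE), 6.78 ± 0.31 (SE) and 6.63 ± 0.36 (SE) (edgeR adjusted p of 1.23e-15, 3.36e-11, 5.88e-15 and 8.29e-12).

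Most Cd74 UMIs of the T gate came from a small number of its cells. Cells with at least 10 Cd74 UMIs, a limit set after the counts were seen, numbered 8 of 297 in stomach, 26 of 2458 in small intestine, 7 of 3439 in cecum and 6 of 3378 in colon. They held 96.7%, 94.7%, 74.2% and 88.0% of the Cd74 UMIs of the T gate of those libraries. Their median depth was 8444.5, 6640, 4458 and 8050 UMIs in stomach, small intestine, cecum and colon, against 2538, 2317, 1752 and 3004.5 in the other T gate cells. Genes of the conventional dendritic list (Flt3, Itgax, Zbtb46 and others) were carried by 85.7% (cecum) to 100% (stomach and colon) of them, against 5.36% (cecum) to 29.1% (stomach) of the other T gate cells. The macrophage and monocyte lists were also more frequent in them in each library, and the B and epithelial lists in some. Macrophage list genes were carried by 28.6% (cecum) to 100% (stomach), against 1.86% (cecum) to 3.46% (stomach) of the other T gate cells, and monocyte list genes by 85.7% (cecum) to 100% (stomach and colon), against 39.4% (small intestine) to 64.0% (stomach). B list genes were carried by 37.5%, 42.3%, 71.4% and 0% in stomach, small intestine, cecum and colon, against 4.15%, 6.83%, 3.82% and 5.43%. Whether these deeper cells are doublets was not tested.

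The share of T gate cells with any UMI of H2-Aa, H2-Ab1 or H2-Eb1 did not exceed that of the NK/ILC1 and mast gates beyond counting error. After thinning each cell to 1000 UMIs it was 9.76%, 6.59%, 3.58% and 2.91% for T cells of stomach, small intestine, cecum and colon, against 10.7%, 4.26%, 19.3% and 19.7% in the NK/ILC1 gate of the same tissues. In the mast gate it was 10.9%, 6.45% and 16.7% in the first 3 of them. The exact binomial 95% interval of the T gate in small intestine, 5.64% to 7.64%, lay within that of the NK/ILC1 gate, 0.520% to 14.5%. In cecum and colon the T gate lay below it. Expression by T cells was not read from these shares. Unthinned they were 19.5%, 11.6%, 6.54% and 8.88% in the T gate and 22.1%, 10.6%, 26.3% and 25.8% in the NK/ILC1 gate. Median depths were 2551, 2326, 1753 and 3005.5 UMIs in the T gate and 2711, 2241, 1908 and 2957.5 UMIs in the NK/ILC1 gate. Thinning left out 58 T gate cells in cecum and 8 in colon and 1 NK/ILC1 cell in colon. In the B gate the thinned share was 92% (small intestine) to 100% (stomach and colon). Intervals cover counting error only.

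Free RNA from broken cells of 1 source carries its transcripts in 1 ratio into every droplet, so T gate levels were set against the B gate level of the same library. In T gate cells with no B or macrophage marker UMI (262, 2190, 3241 and 3097 cells), Cd74 stood at 0.218%, 0.425%, 0.105% and 0.0803% of its B gate level in stomach, small intestine, cecum and colon. The immunoglobulin transcript Igkc, which T cells do not make, stood at 0.0831%, 0.184%, 0.109% and 0.0396% in the same tissues. The chains H2-Aa, H2-Ab1 and H2-Eb1 stood at 0.136% (H2-Aa in colon) to 1.31% (H2-Eb1 in small intestine). Cd74 was thus close to the Igkc fraction in cecum and above it in the other libraries, and each chain was above it in all 4. The B gate is not the only source of Cd74: in stomach it held 6.15% of the UMIs and the macrophage gate 59.8%. In small intestine the B gate held 3.59% and the dendritic gate 23.9%. The part of free RNA from gates other than B in these fractions, that of Igkc among them, was not tested. Fractions of the macrophage gate level and source genes other than Igkc and Ighm are not reported here. An excess over free RNA was therefore not read from these values.

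Among the class II genes in these T gate cells, H2-DMa was at the highest fraction of its B gate level in all libraries but stomach. In stomach Ciita was slightly higher. H2-DMa had 18.0, 33.6, 23.2 and 22.1 CPM in stomach, small intestine, cecum and colon, which was 4.03%, 9.15%, 5.90% and 4.49% of its B gate level. H2-Oa stood at 3.82%, 1.17%, 4.05% and 2.48%, and Ciita at 4.37%, 2.54%, 1.05% and 2.54%. H2-DMb1 stood at 0.399% (from 1 UMI), 4.48%, 0.569% and 0.594% in the same order of tissues. These 4 genes were at a higher fraction of their B gate level than Cd74 was in every library, a ratio between genes that differed from that of the B gate. H2-Ob stood at 0.686%, 0.340%, 1.39% and 1.12%, above Cd74 in all libraries but small intestine, and H2-DMb2 at 0% to 1.32%, from 0 to 4 UMIs. H2-DMa overlaps Brd2 on the other strand, H2-Oa overlaps BC051537 and Ciita overlaps Dexi, whereas H2-DMb1 and H2-Ob overlap no annotated gene. Since the use of strand in the counting is not given in the sources used here, reads of these pairs cannot be told apart. Ighm stood at 2.75% (stomach) to 18.2% (small intestine), so not every B cell transcript shared the fraction of Igkc.

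**Figure D5:**
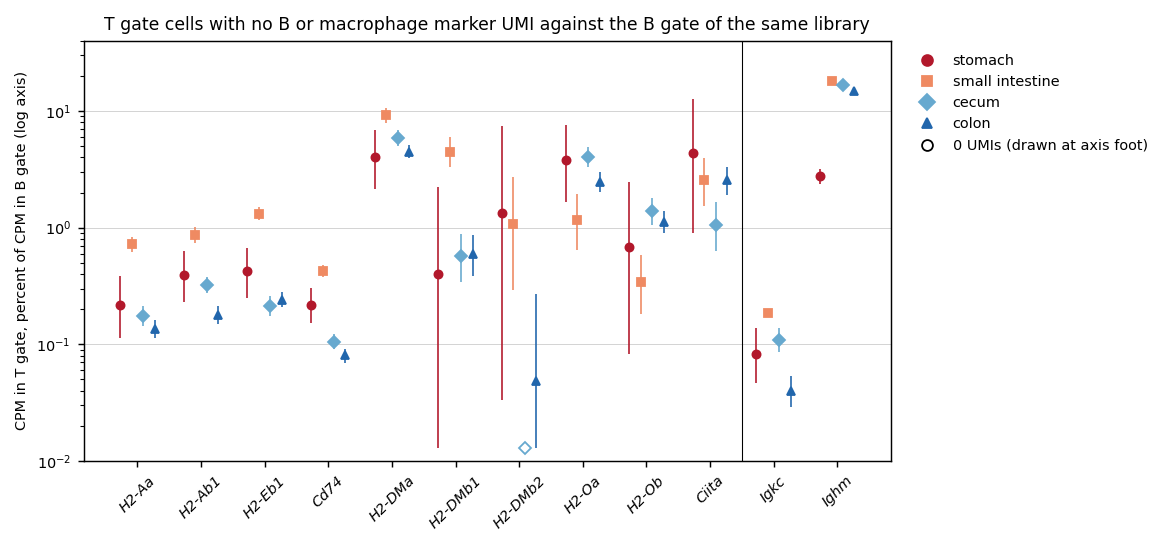
Level of each class II gene, and of Igkc and Ighm, in T gate cells with no B or macrophage marker UMI, as a percent of the B gate of the same library (log axis), with 95% counting intervals. Cd74 lies at 0.0803% to 0.425% and H2-DMa at 4.03% to 9.15%.

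Among T gate cells with no B or macrophage marker UMI, H2-DMa was found in cells of both receptor kinds. Cells with Trdc or Tcrg-C1 UMIs and none of Trac (gamma delta receptor genes) had 19.7, 36.6, 22.5 and 29.96 CPM in stomach, small intestine, cecum and colon. Cells with Trac and neither of the others (the alpha beta receptor) had 16.7, 28.4, 23.6 and 20.4 CPM in the same tissues. The stomach values rest on 2 UMIs in 36 cells and 7 UMIs in 153 cells. The 95% intervals of H2-DMa overlapped in each library, for example 20.4 to 42.5 CPM and 16.6 to 24.7 CPM in colon. Cd74, H2-Aa, H2-Ab1 and H2-Eb1 had 23.2, 16.4, 27.1 and 27.1 CPM in the gamma delta cells of colon. The alpha beta cells had 8.90, 5.54, 9.10 and 8.70 CPM there, with intervals apart for each gene. Intervals were likewise apart for H2-Eb1 in small intestine and for H2-Aa and H2-Ab1 in cecum. The rest overlapped, and Cd74 was lower in the gamma delta cells of stomach and small intestine. The cause was not tested.

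The remaining members were low in the T, NK/ILC1 and mast gates. H2-DMa had 23.9 (cecum) to 71.3 CPM (stomach) in the T gate, 15.6 (colon) to 85.1 CPM (cecum) in the NK/ILC1 gate and 5.93 (small intestine) to 40.9 CPM (cecum) in the mast gate. H2-DMb1 had 3.85 (cecum) to 52.6 CPM (stomach), 8.36 (small intestine) to 42.6 CPM (cecum) and 11.9 (small intestine) to 54.5 CPM (stomach) in the same gates. H2-Oa had 8.34 (small intestine) to 16.5 CPM (cecum) in the T gate, H2-Ob 5.61 (small intestine) to 9.93 CPM (cecum) and Ciita 3.41 (cecum) to 10.8 CPM (small intestine). H2-DMb2 had 0 (cecum) to 7.02 CPM (stomach) in the T gate.

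The T gate and the mast gate were each set against the NK/ILC1 gate (Ncr1, Klrb1c, Eomes and others without Cd3), a lymphocyte gate of the same libraries. No class II gene passed the test in either comparison. Cd74 had 1641, 568, 85.5 and 112 CPM in the T gate of stomach, small intestine, cecum and colon against 532, 50.1, 613 and 493 CPM in the NK/ILC1 gate of the same tissues, higher in 2 libraries and lower in the other 2. In colon 1 of 62 NK/ILC1 cells held 90 of the 95 Cd74 UMIs. Without the richest cell of each gate, an alternative added after the data were seen, Cd74 in colon had 74.1 CPM in the T gate against 26.5 CPM in the NK/ILC1 gate, so the direction turned; in cecum it had 56.4 against 140 CPM. In edgeR's test 0 of 10 class II genes were higher and 0 lower in the T gate (backgrounds 1.15% and 1.47%). An unadjusted p under 0.05 was found for 0, DESeq2 also called 0, and the median log2 fold change was 0.13 against 0.08 over all genes. In an alternative added after the data were seen, cells that carried a B or macrophage marker UMI were left out of the T, NK/ILC1 and mast gates. H2-Aa and H2-Ab1 were then lower in the T gate, with log2 fold changes of -2.25 and -1.53 (edgeR adjusted p = 0.00965 and 0.0197), where all cells had given 0.13 and 0.27. Of the other pathway genes 0 of 40 were higher and 2 lower. Irf8, a transcription factor of myeloid and B cells, was lower with a log2 fold change of -1.36 ± 0.25 (SE) (edgeR adjusted p = 0.00192) and the tetraspanin gene Cd9 with -1.20 ± 0.28 (SE) (edgeR adjusted p = 0.0161).

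Mast gate cells had 528 and 528 CPM of Cd74 in stomach and small intestine and 0 UMIs in 48845 in cecum (up to 61.4 CPM), against 532, 50.1 and 613 CPM in the NK/ILC1 gate of stomach, small intestine and cecum. As in the T gate, few cells held them: in stomach 25 of 1902 mast gate cells had at least 10 Cd74 UMIs while 1715 had 0, and the 19 highest cells held 85.4% of the UMIs. In edgeR's test 0 of 10 class II genes were higher and 0 lower (backgrounds 11.4% and 12.2%). H2-Oa alone of the 10 had an unadjusted p under 0.05, DESeq2 called 0, and the median log2 fold change was 0.11 against 0.02 over all genes. Without the marker-carrying cells H2-DMa was lower in the mast gate, with a log2 fold change of -1.94 (edgeR adjusted p = 0.0146). Of the other pathway genes 6 of 40 were higher and 9 lower. Cd63 at 6.64 ± 0.61 (SE) and Spi1, a myeloid factor, at 6.33 ± 0.75 (SE) were among the higher and Irf8 at -4.25 ± 0.42 (SE) among the lower (log2 fold changes, edgeR adjusted p of 8.61e-09, 4.29e-07 and 2.01e-08); Prdm1 had 3 UMIs against 24, a ratio of 0.0322 (95% counting interval 0.00622 to 0.106).

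Between tissues, B gate cells of small intestine had less of the class II chains than those of colon, and the other tissues were closer to colon. H2-Aa, H2-Ab1 and H2-Eb1 summed had 10870 CPM in small intestine against 23261 CPM in colon, a ratio of 0.467 (95% interval 0.435 to 0.502). The ratio to colon was 0.834 (95% interval 0.804 to 0.866) for stomach and 1.08 (95% interval 1.05 to 1.10) for cecum. With cells of at least 1500 UMIs the cecum direction turned, to a log2 ratio of -0.20 in place of 0.11. In small intestine 5 of 10 class II genes were lower by at least 2-fold and 0 higher, beside 21.4% of 3951 genes lower and 2.83% higher. In stomach 1 of 10 was lower and 0 higher (backgrounds 12.9% and 7%), and in cecum 0 and 0 (backgrounds 2.33% and 1.95%). In small intestine H2-Ob was at 0.908 (95% interval 0.660 to 1.23) of the colon level and H2-DMa at 0.746 (95% interval 0.483 to 1.11). Immunoglobulin transcripts moved with this difference: Igkc had 159431 CPM in the B gate of small intestine against 10659.6 CPM in colon. With immunoglobulin genes left out of the totals the log2 ratio of the chains was -0.69 in place of -1.10. The small intestine B gate held 25 cells.

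Macrophage gate cells carried like amounts of the chains in stomach and colon. The summed chains had 49129.5 CPM in stomach against 46019 CPM in colon, a ratio of 1.07 (95% interval 1.04 to 1.09). They had 32341 CPM in small intestine, a ratio to colon of 0.703 (95% interval 0.673 to 0.733). H2-DMa and Ciita were lower in stomach than in colon, at 0.703 (95% interval 0.588 to 0.846) and 0.592 (95% interval 0.404 to 0.889) of the colon level. By the 2-fold rule 0 of the 8 class II genes that passed the filter on low values were higher or lower in either tissue. Backgrounds were 8.54% higher and 9.94% lower in stomach, and 9.7% and 14.3% in small intestine. H2-Oa and H2-Ob did not pass that filter in either comparison.

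In the T gate the summed chains had 1899 CPM in stomach, 676 in small intestine and 145 in cecum, against 168 CPM in colon. The ratios to colon were 11.3 (95% interval 10.6 to 12.1), 4.02 (95% interval 3.81 to 4.25) and 0.864 (95% interval 0.799 to 0.933). All 6 class II genes that passed the filter in stomach and all 4 in small intestine were at least 2-fold higher (backgrounds 6.9% and 2.8%). By that rule 0 were lower (backgrounds 9.42% and 2.3%), and 0 of 4 in cecum were higher or lower (backgrounds 0.394% and 1.97%). Of the 6 in stomach, H2-DMa and H2-DMb1 passed the filter through stomach only, where they are high, so their count is no support. Without the T gate cells that carried a B or macrophage marker UMI the log2 ratios were 0.61 in stomach and 1.27 in small intestine in place of 3.50 and 2.01, and 0.45 in place of -0.21 in cecum. The T gate difference from colon was thus smaller without those cells in stomach and small intestine and changed sign in cecum.

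The NK/ILC1 gate had 627 CPM of the summed chains in stomach, 91.9 in small intestine and 587 in cecum, against 877 in colon, from 11 (small intestine) to 605 (stomach) UMIs. The ratios to colon were 0.715 (95% interval 0.602 to 0.853), 0.105 (95% interval 0.0513 to 0.192) and 0.670 (95% interval 0.499 to 0.891). Of 4 class II genes that passed the filter, 4 were at least 2-fold lower in small intestine (background 5.15%), 1 in cecum (background 6.58%) and 0 in stomach (background 10.4%). By the same rule 0 were higher in any of the 3 (backgrounds 4.94%, 4.25% and 6.06%). In colon 1 cell held 78.1% of the chain UMIs, and without the richest cell of each library the log2 ratio to colon was 0.69 in place of -0.58 for cecum and -1.69 in place of -3.25 for small intestine. Without marker-carrying cells it was -1.07 for small intestine. Of the 4 genes in small intestine, H2-Aa, H2-Ab1 and H2-Eb1 passed the filter through colon only, so their count is no support. In the mast gate the summed chains had 537 CPM in stomach against 433 CPM in small intestine, a ratio of 1.24 (95% interval 0.983 to 1.59) or a log2 ratio of 0.31. With 1 more marker per gate the direction turned, to -0.40, and the log2 ratio was 3.37 without marker-carrying cells and 5.12 with all cells that met 2 gates left out. Of 5 class II genes 1 was at least 2-fold higher (background 5.29%) and 0 lower (background 15.9%); the 1, H2-DMb1, passed the filter through stomach only, so its count is no support.

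The genes whose levels followed the chains most closely were ranked by Pearson correlation of log2(CPM + 10) with the mean of H2-Aa, H2-Ab1, H2-Eb1 and Cd74 over 22 gate sums of at least 20 cells. There were 7810 genes. The 10 closest genes outside the class II set began with Ifi30, a thiol reductase of the endosome (r = 0.96), the cathepsin gene Ctsh (0.95), Ly86 (0.93), Gm6377 (0.93) and Unc93b1, which carries toll-like receptors to endosomes (0.92). The others were March1 (0.92), Scpep1 (0.90), Irf5 (0.90), Cybb (0.90) and Ctss, the protease that cuts the invariant chain (0.90). Of the class II genes that did not define the mean, H2-DMb1 reached 0.94, Ciita 0.93, H2-DMa 0.92 and H2-DMb2 0.90, whereas H2-Oa reached 0.65 and H2-Ob 0.64. The sums share libraries, depths and cell types, so the values are a description.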

How the data were processed

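The deposited files hold, per the labels, UMI counts for each gene and barcode, made with the 10x 3′ v2 kit; every value was whole, and the authors' counts were used without rescaling. The submitters' processing notes name Cell Ranger, Seurat 3.0.0 and build GRCm38 (mm10); their roles, settings and use of strand are not given in the sources used here. No annotation of cells was used here, and cells were gated on marker UMIs: B 2 of 12 markers, germinal centre B a further 3 of 12, Siglech dendritic 3 of 12 with Siglech, C1q macrophage C1qa or C1qc and 2 of 8, mast 3 of 9, NK/ILC1 2 of 7 including Ncr1, Klrb1c or Eomes and without Cd3, T 1 Cd3 gene and 2 Cd3 or receptor genes, plasma 3 of 6 (Jchain left out). Some genes of the marker lists are not reported here. A cell meeting 2 gates went to the one with at least 5 times the marker UMIs of the next, otherwise to none; 256 cells were so assigned. These minimums, the limit of 10 Cd74 UMIs and the X box letters were chosen after the data were seen, and the class II genes and gene lists were chosen with earlier results of these data known.

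UMIs were summed per gate and library, and 24 sums of at least 10 cells entered 1 fit (edgeR 4.0.16, R 4.3.3, gate and library terms, filterByExpr, TMM, quasi-likelihood test, Benjamini-Hochberg over 8360 genes, threshold 0.05); a gate comparison used 2 to 4 libraries per gate. On simulated counts for macrophage over B, 80.5% of 200 genes changed 4-fold were recovered and 0.178% of unchanged genes were called among 7485. The simulated counts had no other gate difference, and the fold was the same in each macrophage sum. These rates therefore do not carry over to smaller changes or to changes that vary between tissues. DESeq2 1.42.0 was an alternative. Tissue ratios needed 20 cells in both libraries and genes of 50 CPM in either and 20 UMIs in total, with exact conditional binomial intervals; the Siglech dendritic gate did not reach 20 cells in colon. CPM carry exact Poisson and shares Clopper-Pearson 95% intervals, counting error only, and 0 counts a limit of 3 counts. All 10 class II genes were reported, and in each comparison the 4 other pathway genes with the largest change among those passing. Gene overlaps came from GENCODE on GRCm38. The alternatives are listed with their effects in the closing section.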

Additional observations from a re-analysis of the deposited data

Results flagged for a closer look

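The T gate level over the NK/ILC1 gate level of the same library lay above 1 in some libraries and below 1 in others, with 95% counting intervals on opposite sides of 1; the differences between libraries were not tested. For Cd74 the ratio was 3.09, 11.3, 0.140 and 0.228 in stomach, small intestine, cecum and colon. In colon 1 of 62 NK/ILC1 cells held 90 of the 95 Cd74 UMIs, and without the richest cell of each gate the Cd74 ratio was 9.33, 29.9, 0.402 and 2.79. In the same tissues and with all cells it was 3.25, 7.20, 0.159 and 0.192 for H2-Aa, 2.75, 5.09, 0.409 and 0.201 for H2-Ab1 and 3.16, 13.3, 0.262 and 0.182 for H2-Eb1. For H2-DMa it was 1.86 in stomach and 0.280 in cecum, and for H2-DMb1 1.95 and 0.0905. The mast gate over the NK/ILC1 gate gave 10.5 in small intestine and 0 in cecum for Cd74, 5.86 and 0.0729 for H2-Aa, and 7.81 and 0.120 for H2-Eb1, also not tested. In small intestine 4 of 62 mast gate cells had at least 10 Cd74 UMIs and 58 had 0. Without the richest cell of each gate the small intestine ratios were 20.7, 8.05 and 4.55. The cecum interval then reached past 1 for H2-Aa (0.00377 to 1.02) and H2-Eb1 (0 to 1.13), and was 0 to 0.656 for Cd74.

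Cells outside the gates, which no comparison used, carried Cd74 well above the T gate level. Cells in no gate had 16863, 6297, 16869 and 10994 CPM in stomach, small intestine, cecum and colon. Cells that met more than 1 gate had 10935.5, 3439, 8757 and 11949 CPM in the same tissues.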

How the results depend on the processing

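Calls among the 10 class II genes by edgeR were 5 for macrophage over B, 3 for dendritic over B, 1 for germinal centre over B, 10 for B over T and 0 for T and for mast over NK/ILC1. With sums of at least 30 cells macrophage over B had 2 calls and germinal centre over B 2; with 1 more marker per gate germinal centre over B had 2. With marker-carrying T, NK/ILC1 and mast cells left out the calls were 5 for dendritic over B, 5 for germinal centre over B, 2 for T over NK/ILC1 (H2-Aa at -2.25 and H2-Ab1 at -1.53, both reversed) and 1 for mast over NK/ILC1. Leaving out each library gave 2 to 6 calls for macrophage over B, 2 to 3 for dendritic over B, 0 to 4 for germinal centre over B, 10 to 10 for B over T and 0 to 0 for T and for mast over NK/ILC1. The share of all genes called was not counted in these alternatives, so their counts have no background beside them. The cause of these changes was not tested. The labels give no replicate numbers, so the library was the block; without the replicate block the calls were 4, 3, 1, 10, 0 and 0 in the order above.

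The log2 ratio of the summed chains in the B gate over colon, -0.26 in stomach, -1.10 in small intestine and 0.11 in cecum, was -0.17, -0.72 and 0.17 with 1 more marker. With cells of at least 1500 UMIs it was -0.33 in stomach and reversed to -0.20 in cecum, without the richest cell 0.16 in cecum, and without immunoglobulin totals -0.69 in small intestine. With all cells that met 2 gates left out it was 0.18 in stomach macrophages, and 3.99 and 2.41 in T cells of stomach and small intestine, and 5.12 for mast cells of stomach over small intestine. In the T gate of cecum it reversed to 0.0182 with cells of at least 1500 UMIs and to 0.45 without marker-carrying cells, which gave 0.61 in stomach and 1.27 in small intestine; without the richest cell it was 2.35 in small intestine. In the NK/ILC1 gate it was -1.69 in small intestine and reversed to 0.69 in cecum without the richest cell, -1.07 and reversed to 1.64 without marker-carrying cells, and -1.86 in cecum with 1 more marker. Mast cells gave -0.40 with 1 more marker, a turn of direction, and 3.37 without marker-carrying cells. Without the richest cell the T over NK/ILC1 ratio in colon reversed to 2.79 for Cd74 and to 1.77 for H2-Eb1.

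The share of T gate cells with a chain UMI was 3.37%, 2.12%, 0.680% and 0.475% in stomach, small intestine, cecum and colon when 2 UMIs were asked for, and 8.26%, 5.60% and 4.41% when cells were thinned to 1500 UMIs in all but stomach. Cd74 in the T gate was 0.218%, 0.425%, 0.105% and 0.0803% of the B gate without marker-carrying cells. Low UMI counts limit H2-Oa, H2-Ob and H2-DMb2 outside B cells, and gates of 17 to 25 cells limit part of the macrophage, dendritic, germinal centre and B gate values.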

Other observations

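The cells in no gate that had at least 10 Cd74 UMIs numbered 106, 28, 17 and 27 in stomach, small intestine, cecum and colon. A UMI of the macrophage list (Csf1r, Adgre1 and others, without C1q) was carried by 93.4%, 96.4%, 82.4% and 96.3% of them, and one of the conventional dendritic list by 77.4%, 78.6%, 88.2% and 44.4%, at median depths of 5031, 4547, 4044 and 5947 UMIs. They were given no cell type name.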
